A study of Mus musculus with 6 samples.

Results

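The genes described here are the subunits of the hypoxia-inducible factor (HIF), the enzymes and the ubiquitin ligase subunit that sense oxygen and control it, and a pair of genes commonly read as reporters of its activity. They were picked out by symbol, with no threshold on a measured value but with earlier results of these data known, and comprise 10 of the 57010 rows of the deposited count table. The 8 regulators are Hif1a, Epas1, Arnt, Vhl, Hif1an, Egln1, Egln2 and Egln3, and the 2 reporters are Ankrd37 and Car9. RNA sequencing was carried out on CT26 cells, a mouse colon carcinoma line. The 3 sgControl libraries came from cells with a control guide, and the 3 sgCdk10 libraries from cells with a guide that targets Cdk10, which encodes a cyclin-dependent kinase. No drug, oxygen level or time point distinguishes the groups in the labels. The labels do not say whether the guided cells were a clone or a pool, where the guide cuts, or whether replicate libraries stem from separate cultures, so the p-values rest on a spread that may be technical. The study's title is about suppression of antitumor immunity by CDK10, and the comparison below asks how the oxygen-sensing genes differed between the groups.

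As background, HIF is a dimer of an oxygen-regulated alpha subunit, encoded by Hif1a or Epas1, and a constant beta subunit encoded by Arnt. When oxygen is present, the prolyl hydroxylases encoded by Egln1, Egln2 and Egln3 hydroxylate the alpha subunit, and the product of Vhl then recruits a ubiquitin ligase that leads to its degradation, while the asparaginyl hydroxylase encoded by Hif1an blocks binding of coactivators. The alpha subunit is thus controlled mainly at the level of protein stability, which RNA counts do not measure. Egln1 and Egln3 are themselves known HIF targets, whereas Egln2 is not known as a hypoxia-induced gene. Ankrd37 encodes an ankyrin repeat protein and Car9 encodes carbonic anhydrase 9, a cell-surface enzyme that regulates pH in hypoxic tumours.

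HIF binds DNA at a short core, ACGTG or GCGTG, and the start-site windows of 4 genes that rose and 1 that fell are printed because they show which of these genes carry that core next to the start. The windows run from 250 bases before to 50 bases after the start, 5′ to 3′ along the gene, from RefSeq on GRCm38.p6, and the capitals mark ACGTG or GCGTG on either strand (CACGT and CACGC when read on the opposite strand). The core ACGTG also lies within CACGTG, a motif bound by other factors. The positions are chr8:45999801-46000100 on the minus strand for Ankrd37, chr4:43506776-43507075 on the plus strand for Car9, chr8:124949205-124949504 on the minus strand for Egln1, chr6:113623744-113624043 on the plus strand for Vhl and chr7:27166753-27167052 on the minus strand for Egln2.
Ankrd37: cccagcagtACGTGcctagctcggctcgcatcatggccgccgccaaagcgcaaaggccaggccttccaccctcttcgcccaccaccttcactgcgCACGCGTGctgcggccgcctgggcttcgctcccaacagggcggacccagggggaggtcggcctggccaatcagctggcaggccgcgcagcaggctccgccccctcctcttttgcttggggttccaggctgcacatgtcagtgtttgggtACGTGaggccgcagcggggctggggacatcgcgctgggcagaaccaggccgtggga
Car9: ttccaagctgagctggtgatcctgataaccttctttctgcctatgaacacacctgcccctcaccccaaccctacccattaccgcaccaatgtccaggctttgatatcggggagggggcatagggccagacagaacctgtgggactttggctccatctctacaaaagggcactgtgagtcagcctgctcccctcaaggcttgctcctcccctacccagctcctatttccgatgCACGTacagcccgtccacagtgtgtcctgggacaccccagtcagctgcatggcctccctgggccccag
Egln1: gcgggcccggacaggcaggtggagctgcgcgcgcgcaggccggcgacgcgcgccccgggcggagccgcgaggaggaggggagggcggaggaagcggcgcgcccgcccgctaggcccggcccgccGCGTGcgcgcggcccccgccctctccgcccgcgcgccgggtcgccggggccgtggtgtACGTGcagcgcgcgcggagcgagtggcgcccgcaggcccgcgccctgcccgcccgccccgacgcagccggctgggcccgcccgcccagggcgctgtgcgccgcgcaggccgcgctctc
Vhl: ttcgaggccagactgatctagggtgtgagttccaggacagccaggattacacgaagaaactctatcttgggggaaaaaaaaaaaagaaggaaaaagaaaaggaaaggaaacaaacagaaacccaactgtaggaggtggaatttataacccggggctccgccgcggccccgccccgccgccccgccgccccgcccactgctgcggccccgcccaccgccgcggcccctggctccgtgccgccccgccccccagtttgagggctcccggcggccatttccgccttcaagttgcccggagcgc
Egln2: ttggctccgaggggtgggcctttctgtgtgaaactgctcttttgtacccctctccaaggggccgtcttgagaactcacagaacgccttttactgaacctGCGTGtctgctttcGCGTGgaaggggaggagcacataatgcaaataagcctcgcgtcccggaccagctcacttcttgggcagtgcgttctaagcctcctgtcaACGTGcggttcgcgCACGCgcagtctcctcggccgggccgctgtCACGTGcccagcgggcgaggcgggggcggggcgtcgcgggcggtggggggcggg
The window of Ankrd37 held 4 matches, of which 2 overlap on opposite strands, that of Egln1 2 and that of Car9 1, and that of Vhl held 0. The Egln2 window held 6 matches, including a CACGTG that is counted on both strands, and the second start of Egln2 in the table held 1. Hif1a had 3 matches, Egln3 and Arnt 1 each and Hif1an 0; Epas1 was not matched in the table. In all 7 of 9 matched genes held the core, in a background where 43.8% of 32851 windows of this length held it, 19.6% with ACGTG, 32.4% with GCGTG and 7.15% with CACGTG. The background is a share of windows, not of genes, and was not matched for GC content, so no excess can be read from it. Genes that rose and genes that fell were both among those with and without matches, and a match of these letters is a description of the window, not a binding site.

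Library totals lay between 17532202 and 19258309 counts. The targeted gene Cdk10 was lower in every library with its guide, at 204, 227 and 202 counts against 381, 344 and 365 in sgControl. Its log2 fold change was -0.82 (edgeR adjusted p = 8.4e-09, SE 0.08). Replicate 3 of sgControl stood apart, as its chi-square against the other sgControl libraries, divided by the degrees of freedom, was 3.97 and 4.02, where other replicate pairs gave 1.49 to 1.56, so results are also given without it where they move. Of 16 leukocyte markers 7 were at 0 in every library and 0 passed the filter on low counts, and their summed level was 0.791 to 1.18 CPM, counts scaled to a common library total, in sgControl and 0.607 to 1.14 in sgCdk10. Of 6 endothelial markers 1 passed, of 4 erythroid markers 1, and of 4 fibroblast markers 1, namely Pdgfra, whose level gave the fibroblast sum of 8.80 to 9.72 CPM in sgControl and 13.3 to 14.8 in sgCdk10, while Lum was at 0. The colon and epithelial markers had Epcam at 0 in all libraries, and 4 of the 10 passed, with a summed level of the 10 of 37.6 to 41.9 CPM in sgControl and 59.2 to 60.1 in sgCdk10. Krt18 and Krt20, which make up most of that sum, rose by 0.65 and 0.51 on the log2 scale, Muc2 fell from 0.840 to 0.436 CPM (edgeR adjusted p = 0.0305), and Lgals4 had 0.935 and 0.891 CPM without a call. The part of these marker differences in the results below was not tested.

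Of the 10 genes, 8 passed the filter on low counts, and the test called 7 of these: Ankrd37, Car9, Egln1 and Vhl rose in sgCdk10, and Hif1a, Egln2 and Hif1an fell. Without sgControl replicate 3, 6 were called, as Hif1an was lost, where 6056 of all 13669 genes tested in that fit were called. The background is high, since 42.5% of all 13442 tested genes passed edgeR's quasi-likelihood test at an adjusted p under 0.05, with 22.1% of tested genes called higher and 20.4% called lower. By DESeq2, 6 of the 8 were called, against 31.1% of all tested genes. In 7 of the 8 the groups did not overlap in level, where 51.3% of tested genes had groups that did not overlap. What set the tested genes apart from each other was the size of the difference: the reporters changed by 6.47-fold and 2.11-fold, and the 6 tested regulators by between 0.800-fold and 1.61-fold. Epas1 and Egln3 were too low to be tested and are outside this range. The contrast holds for these 2 reporters only: the median of the 51 other tested HIF target genes was 1.37-fold, within the range of the regulators. Genes called higher with at least a 2-fold change made up 0.975% of all tested genes, and both reporters were among them. In cultures sequenced in bulk, fewer cells with a transcript and less of it per cell cannot be told apart.

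**Figure D1:**
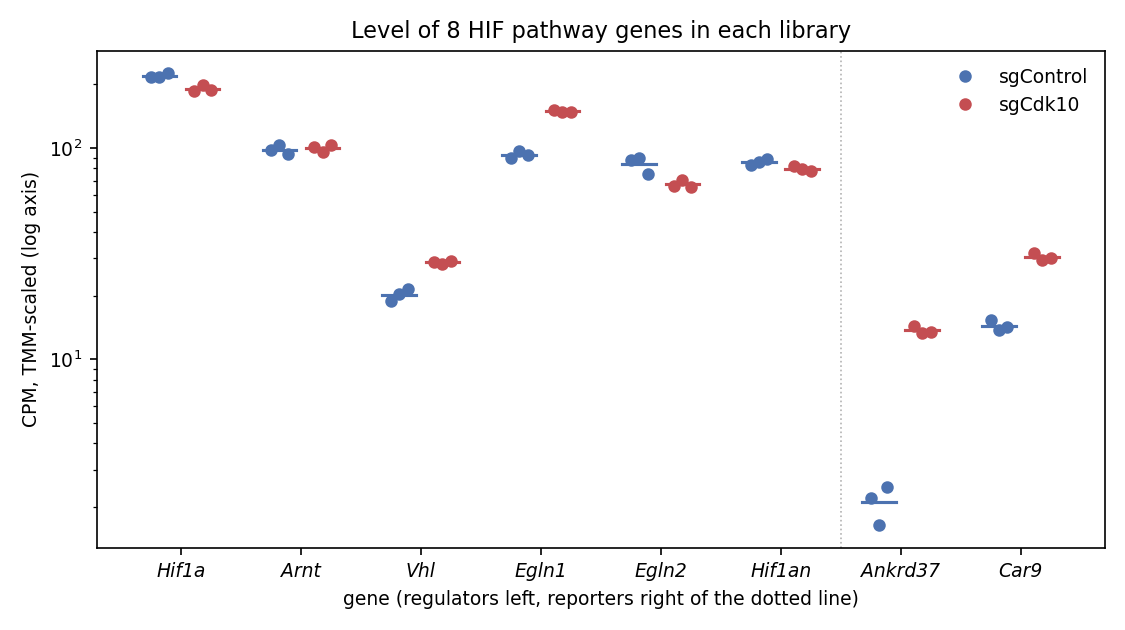
Level of the 8 genes that passed the filter, as TMM-scaled CPM on a log axis, with 1 point per library (blue sgControl, red sgCdk10) and a line at the mean of 3 libraries. Ankrd37 and Car9, right of the dotted line, are higher in every sgCdk10 library than in every sgControl library, as are Egln1 and Vhl, while the points of Arnt overlap.

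Among the subunits, Hif1a, the gene of HIF-1alpha, was the most abundant alpha subunit and fell by a small amount. It had 217, 216 and 225 CPM in sgControl and 186, 199 and 188 CPM in sgCdk10. Every sgCdk10 library was below every sgControl library. The log2 fold change was -0.20 (edgeR adjusted p = 1.6e-05, SE 0.03), a level of 0.870 times that of sgControl. Hif1a (ENSMUSG00000021109) is a plus-strand gene of chromosome 12, between 73901375 and 73947530 of GRCm38, with 15 merged exons. Its exons share 330 bases with Gm15283 on the opposite strand, which had 51 counts in sgControl and 43 in sgCdk10, summed over libraries, and 148 bases with Gm49321 on its own strand, which was not analysed here.

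Epas1, the gene of HIF-2alpha, was near the limit of detection. It had 0 counts in each sgControl library and 1, 1 and 0 in sgCdk10. A count of 0 allows a level of up to 0.165 to 0.169 CPM in the sgControl libraries, taking 3 counts as the floor, which covers counting error only. Both groups were under that floor, and a difference could not be detected at this depth. Hif1a therefore held the whole of the summed length-scaled level of both alpha genes in each sgControl library and 99.98% ± 0.0178 in sgCdk10 (SD, n = 3; exact two-sided permutation p = 0.4).

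Arnt, the gene of the beta subunit, had 97.6, 103 and 93.5 CPM in sgControl and 101, 95.7 and 103 CPM in sgCdk10. The groups overlapped, and the log2 fold change was 0.03 (edgeR adjusted p = 0.578, SE 0.04). With the correction for GC content and length its value was -0.01, and without sgControl replicate 3 it was also -0.01, so it has no stable direction. The length-scaled ratio of Hif1a to Arnt was 3.05 ± 0.215 in sgControl and 2.60 ± 0.194 in sgCdk10 (SD, n = 3), with groups that just failed to overlap (exact two-sided permutation p = 0.1, the smallest that 3 against 3 libraries allow).

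Of the prolyl hydroxylase genes, Egln1 rose, Egln2 fell and Egln3 was barely detected. Egln1, which encodes PHD2, the main oxygen sensor for HIF-1alpha in most cells, had 89.5, 96.5 and 92.9 CPM in sgControl and 152, 148 and 147 CPM in sgCdk10. All sgCdk10 libraries were far above the sgControl range, and the rise was 0.68 on the log2 scale (edgeR adjusted p = 5.6e-14, SE 0.03). Egln1 (ENSMUSG00000031987) is a minus-strand gene of chromosome 8, between 124908587 and 124949324, with 5 merged exons and no exon shared with another annotated gene. It ranked 58th of the 13442 genes by p and 392nd from the top by log2 fold change.

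Egln2, which encodes PHD1, had 87.9, 89.5 and 74.9 CPM in sgControl and 66.1, 70.4 and 65.4 CPM in sgCdk10. The groups did not overlap, but sgControl replicate 3 lay closer to the sgCdk10 libraries than the other sgControl libraries did. Egln2 (ENSMUSG00000058709) is a minus-strand gene of chromosome 7, between 27158658 and 27166802, and shares 11 exonic bases with Cyp2t4 on the opposite strand, which had 22 and 25 counts over the libraries of each group. The log2 fold change of Egln2 was -0.32 (edgeR adjusted p = 0.00173, SE 0.06), and it fell by 0.40 without sgControl replicate 3.

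Egln3, which encodes PHD3 and is among the genes that hypoxia induces most in many cell types, was near the limit of detection. It had 1, 0 and 0 counts in the sgControl libraries and 1, 4 and 4 in those of sgCdk10, and it did not pass the filter. The summed counts were 1 and 9, a ratio of 8.80 scaled to the library totals, with an exact 95% interval of 1.22 to 386 that covers counting error only. In the fit without a filter, over 27130 genes, Egln3 was not called (edgeR adjusted p = 0.0955), and neither was Epas1 (edgeR adjusted p = 0.442).

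Levels of the 3 paralogs can be compared only per length. In CPM per kilobase of merged exons, Egln1 was at 25.9 ± 0.963 and Egln2 at 30.0 ± 2.84 in sgControl, and at 41.5 ± 0.639 and 24.0 ± 0.953 in sgCdk10 (SD, n = 3). Egln1 thus held 44.2, 45.7 and 49.1% of the summed prolyl hydroxylase level in the sgControl libraries and 64.1, 62.1 and 63.6% in the sgCdk10 libraries. The order of Egln1 and Egln2 was reversed between the groups in every library, and the share of Egln3 was at most 0.129%. The share of Egln1 was higher by 16.9 percentage points in sgCdk10, and the summed level of the paralogs was 55.9 ± 3.12 CPM per kilobase in sgControl and 65.6 ± 1.01 in sgCdk10. Both differences exceeded the spread within the groups, with exact two-sided permutation p = 0.1, the smallest possible, and an adjusted p of 0.143 over the 10 shares, sums and ratios computed.

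**Figure D2:**
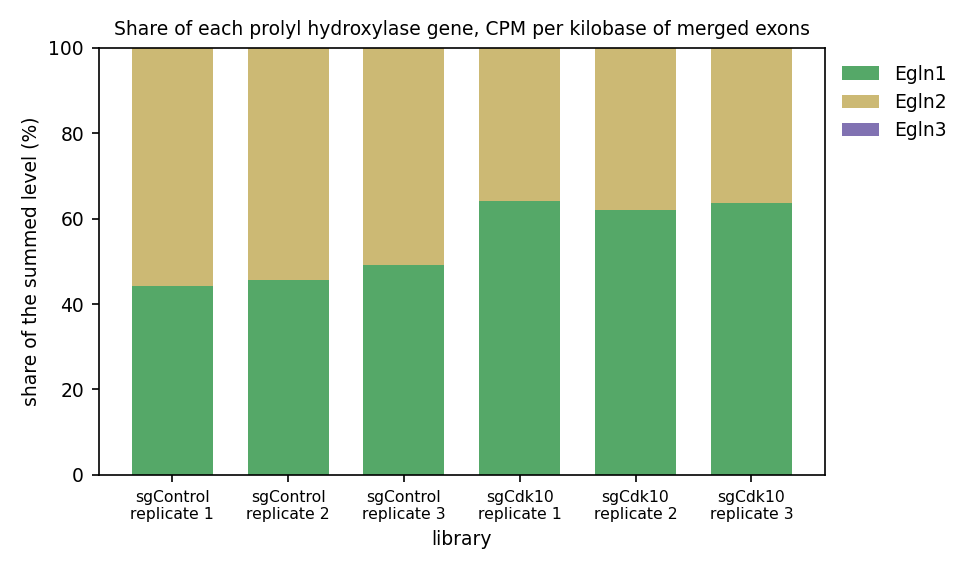
Share of Egln1, Egln2 and Egln3 in their summed level per library, in percent, from CPM per kilobase of merged exons. Egln1 makes up 44.2 to 49.1% in the 3 sgControl libraries and 62.1 to 64.1% in the 3 sgCdk10 libraries, and Egln3 is too low to be seen.

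Vhl, the substrate receptor of the ubiquitin ligase, had 18.9, 20.5 and 21.4 CPM in sgControl and 28.9, 28.3 and 29.3 CPM in sgCdk10. The groups were well separated, and the rise was 0.51 on the log2 scale (edgeR adjusted p = 2.1e-07, SE 0.06). Vhl (ENSMUSG00000033933) is a plus-strand gene of chromosome 6, between 113623959 and 113631633, with 5 merged exons.

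Hif1an, the gene of the asparaginyl hydroxylase FIH, had 83.0, 85.3 and 88.5 CPM in sgControl and 82.0, 79.6 and 77.9 CPM in sgCdk10. The highest sgCdk10 library was just under the lowest sgControl library. Hif1an fell by 0.10 on the log2 scale (edgeR adjusted p = 0.0347, SE 0.04), and this call was not made by DESeq2 (adjusted p = 0.121). It was also lost in edgeR without sgControl replicate 2 (adjusted p = 0.0679) or 3 (adjusted p = 0.0687) and without sgCdk10 replicate 2 (adjusted p = 0.0971) or 3 (adjusted p = 0.154), so the fall of Hif1an is uncertain.

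Of these regulators, 2 rose and 3 fell among the 6 tested, with a median log2 fold change of -0.04 beside 0.00 over all tested genes. Of all tested genes, 22.1% were called higher and 20.4% lower. Levels were also set against that of Hif1a within each library for Egln1, Egln2 and Vhl, whose products lead to degradation of HIF-1alpha. The length-scaled ratio of Egln1 to Hif1a was 0.696 ± 0.0323 in sgControl and 1.28 ± 0.0592 in sgCdk10, and that of Vhl to Hif1a was 0.182 ± 0.00867 and 0.298 ± 0.0148 (SD, n = 3). In both ratios the groups did not overlap (exact two-sided permutation p = 0.1 each, the smallest possible). The ratio of Egln2 to Hif1a was 0.809 ± 0.0943 in sgControl and 0.742 ± 0.00981 in sgCdk10 (SD, n = 3). Here the groups overlapped, as sgControl replicate 3 lay below every sgCdk10 library (exact two-sided permutation p = 0.4).

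**Figure D3:**
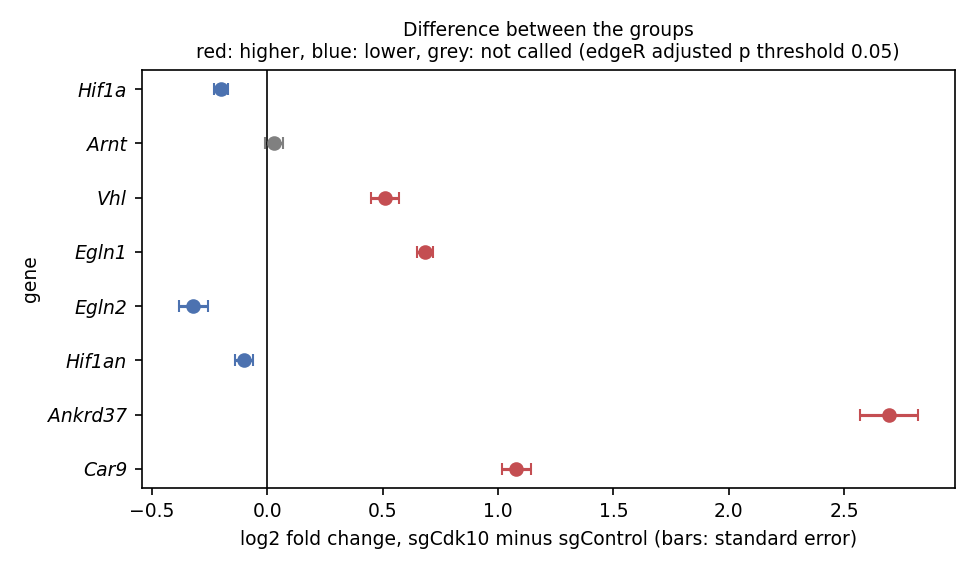
Log2 fold change of the 8 tested genes, sgCdk10 minus sgControl, with the standard error as bars; red is higher, blue is lower and grey is not called. Ankrd37 at 2.69 and Car9 at 1.08 lie farther from 0 than any of the 6 regulators, of which Egln1 at 0.68 and Egln2 at -0.32 are the extremes.

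Both reporters rose. Ankrd37 had 39, 29 and 45 counts in the sgControl libraries and 259, 235 and 258 in the sgCdk10 libraries, or 2.11 ± 0.429 and 13.7 ± 0.527 CPM (SD, n = 3). The lowest sgCdk10 library was several times above the highest sgControl library. The log2 fold change was 2.69 (edgeR adjusted p = 1.4e-14, SE 0.13), the fourth highest of the 13442 tested genes. Ankrd37 (ENSMUSG00000050914) is a minus-strand gene of chromosome 8, between 45996902 and 46005707 of GRCm38, with 7 merged exons.

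Because the strand setting of the counting is not known, its opposite-strand neighbours bear on its count. Lrp2bp shares 349 bases, or 22.7% of the exonic length of Ankrd37, and had 9, 19 and 17 counts in the sgControl libraries and 21, 14 and 14 in those of sgCdk10 (log2 fold change 0.09; edgeR adjusted p = 0.854). Ufsp2, the gene of a UFM1-specific protease, shares 57 bases, and its log2 fold change was 0.13 (edgeR adjusted p = 0.0141). The log2 fold changes of both neighbours were far below that of Ankrd37. Ufsp2 was the more abundant gene, however, at 61.2 CPM in sgControl and 67.1 in sgCdk10, against 2.11 and 13.7 for Ankrd37. Whether the shared bases add reads to the count of Ankrd37 or take reads from it, and how many, was not tested.

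Car9 had 15.3, 13.8 and 14.2 CPM in sgControl and 31.7, 29.5 and 30.2 CPM in sgCdk10. The groups were far apart relative to their spread, and the log2 fold change was 1.08 (edgeR adjusted p = 1.1e-12, SE 0.06). Car9 (ENSMUSG00000028463) is a plus-strand gene of chromosome 4, between 43506966 and 43513729 of GRCm38, with 11 merged exons. Gm12454, an antisense gene that shares 214 bases or 9.29% of its exonic length, had 1, 2 and 0 counts in the sgControl libraries and 6, 15 and 12 in those of sgCdk10. Gm12454 was too low to be tested. As the strand setting is not known, it is also unknown how reads in the shared part were assigned.

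Per kilobase of merged exons, the order of the genes changed between the groups. In sgControl the highest was Hif1a at 37.2 CPM per kilobase, followed by Egln2 and Egln1, whose ranges overlap narrowly, then Hif1an at 13.0 ± 0.421 and Arnt at 12.3 ± 0.600, whose ranges overlap, then Vhl at 6.75 ± 0.420 and Car9 at 6.25 ± 0.339, whose ranges overlap too, and last Ankrd37 at 1.37 ± 0.279 (SD, n = 3). In sgCdk10 the highest was Egln1, followed by Hif1a at 32.4 ± 1.18 and Egln2. Car9 at 13.2 ± 0.501 was next to Arnt at 12.5 ± 0.480 and Hif1an at 12.1 ± 0.312, and the ranges of these neighbours overlap. Vhl at 9.62 ± 0.159 and Ankrd37 at 8.89 ± 0.342 were the lowest of the genes that passed the filter. This order depends on the length used. Per kilobase of the longest transcript, a choice made after seeing the data, Ankrd37 in sgCdk10 was at 14.8 ± 0.568, beside Car9 at 15.1 ± 0.570 and above Hif1an at 12.9 ± 0.332 and Vhl at 10.3 ± 0.171, and Arnt was above all of these at 23.1 ± 0.889 (SD, n = 3). On that scale the ranges of Egln1 and Hif1a in sgCdk10 overlap, and in sgControl Ankrd37 was again the lowest, at 2.27 ± 0.462, while Arnt was above Hif1an.

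Among 11100 of the tested genes, which leave out predicted gene models and rows without a symbol, those whose levels over the 6 libraries were most like those of Ankrd37 were Kctd11, Tmem95 and Prdm1, with Euclidean distances of 0.48, 0.56 and 0.68 between centred log2 CPM. Kctd11 went from 6.38 ± 0.586 to 33.8 ± 1.55 CPM (SD, n = 3). Tmem95 was near the floor of 3 counts in sgControl, at 0.261 CPM against 1.98 in sgCdk10, so its distance is uncertain. For Car9 the nearest were Mfap3l, Unc13a and Jun, with distances of 0.12, 0.14 and 0.15, and log2 fold changes of 1.05, 1.08 and 1.15. With 2 groups and 6 libraries, genes with a similar difference between the groups score as alike.

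Egln1 and Ankrd37 lie on the same chromosome as Cdk10, at distances of 1.68 and 77.2 megabases. Of 723 tested genes of chromosome 8, 144 were called higher and 185 lower, with a median log2 fold change of -0.02. Of the 29 tested genes between Cdk10 and Egln1, 2 were called higher and 12 lower, with a median of -0.06. Over all tested genes, 22.1% were called higher and 20.4% lower. The share called higher was 19.9% for chromosome 8 and 6.9% between Cdk10 and Egln1, where lower calls outnumbered higher ones. The cause was not tested.

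The other genes of the pathway were described by lists written with earlier results of these data known. Of 59 HIF target genes outside the members 51 were tested, of which 43 rose and 2 fell, against 22.1% higher and 20.4% lower over all tested genes, or 43 and 1 without sgControl replicate 3, with a median log2 fold change of 0.46 (1.37-fold) beside 0.00 over all tested genes. Plod2, which encodes a lysyl hydroxylase of collagen, rose from 44.2 to 102 CPM (log2 fold change 1.20, SE 0.04; edgeR adjusted p = 4.8e-17). P4ha2, which encodes a collagen prolyl hydroxylase subunit, rose by 1.17, the cyclin gene Ccng2 by 1.15 and the MYC antagonist gene Mxi1 by 1.04 on the log2 scale. Stc2, which encodes stanniocalcin 2, fell by 0.55 (edgeR adjusted p = 9.4e-05), and Tfrc, the transferrin receptor gene, fell by 0.09 (edgeR adjusted p = 0.0394). The list shares genes with one of glycolysis and hypoxia already known to be higher in these libraries, so that its count is not independent evidence of direction.

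**Figure D4:**
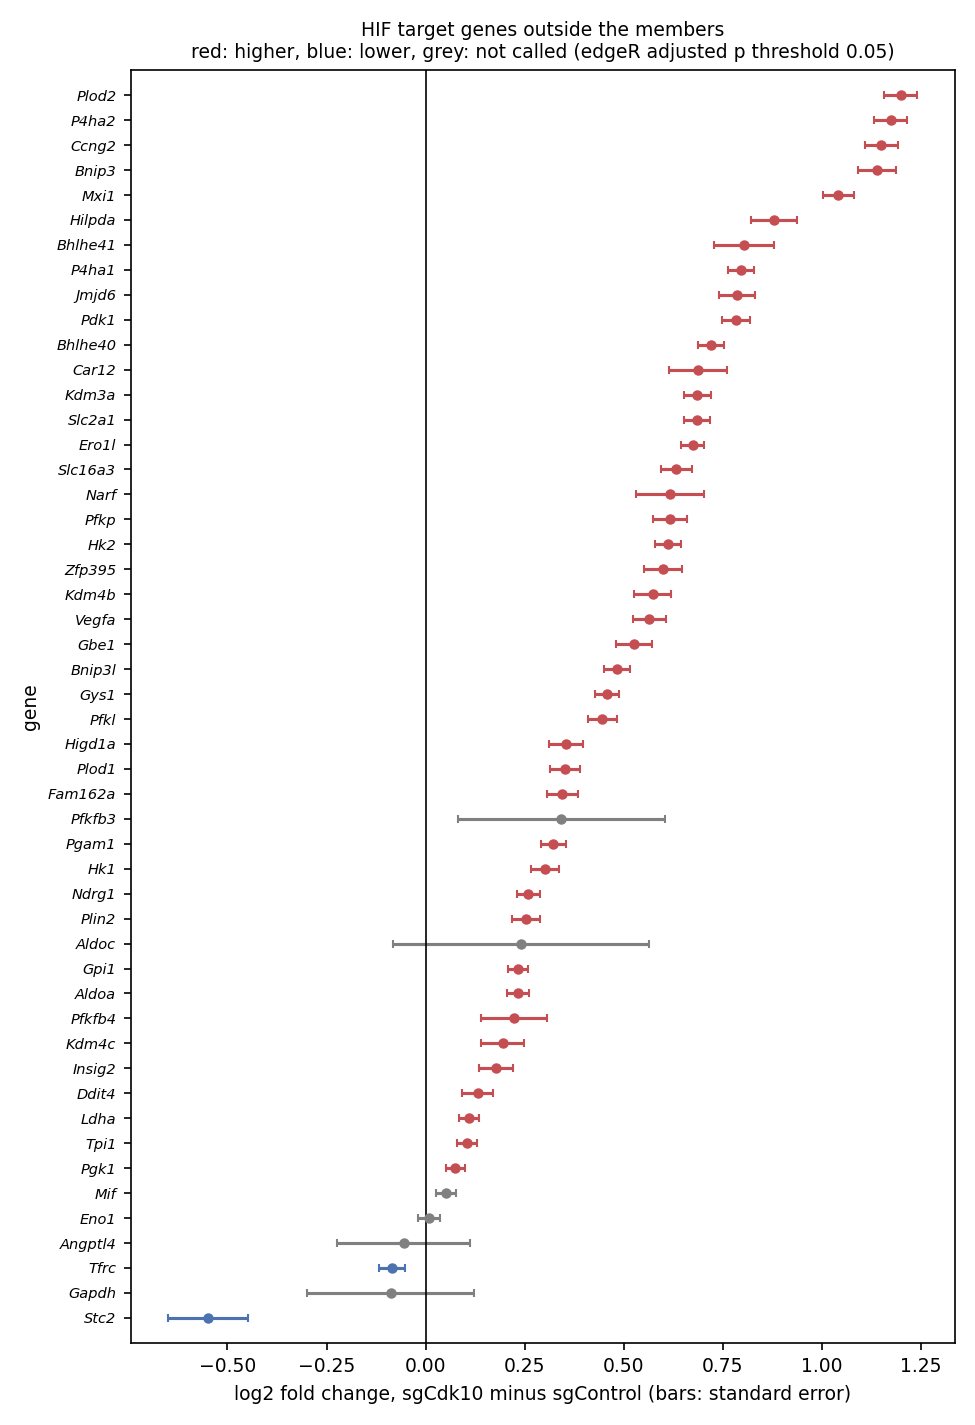
Log2 fold change of 50 of the tested HIF target genes outside the members, sgCdk10 minus sgControl, with the standard error as bars; red is higher, blue is lower and grey is not called. The plotted values run from 1.20 for Plod2 to -0.55 for Stc2, with 42 genes higher and 2 lower.

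The other lists were read against the same shares of all tested genes, 22.1% higher and 20.4% lower. In the fit without sgControl replicate 3, 3023 of all 13669 tested genes were called higher and 3033 lower. In the VHL ubiquitin ligase list, which holds the subunits and conjugating enzymes that act with VHL, 1 of 9 genes rose and 4 fell, or 2 and 4 without sgControl replicate 3, with a median of -0.08. Elob, which encodes an elongin of the VHL complex, fell by 0.18 and the ring subunit gene Rbx1 by 0.20 on the log2 scale. Ube2m, which encodes a NEDD8-conjugating enzyme, fell by 0.24, and Nedd8 itself fell by 0.10 (edgeR adjusted p = 0.0383). Among 13 tested coactivators and stability factors 3 rose and 3 fell, near those shares, with a median of -0.02, and without sgControl replicate 3 the counts were 2 and 6. Ep300, the gene of the coactivator p300, rose by 0.12 and Os9 by 0.18, while the deacetylase gene Sirt1 fell by 0.55 and Hsp90ab1, a chaperone gene, fell by 0.12 on the log2 scale.

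Prolyl hydroxylases use 2-oxoglutarate and are inhibited by succinate and fumarate. Of 11 genes of enzymes that make or use these acids 3 rose and 7 fell, where 22.1% of all tested genes were called higher and 20.4% lower, or 2 and 7 without sgControl replicate 3, with a median log2 fold change of -0.11. Idh1, the cytosolic isocitrate dehydrogenase gene, fell from 73.7 to 54.9 CPM (log2 fold change -0.42, SE 0.04; edgeR adjusted p = 6.3e-09). Ogdh fell by 0.13 and the succinate dehydrogenase subunit gene Sdhc by 0.16 on the log2 scale. Among 4 tested genes of the wider family of HIF and partner subunits 0 rose and 1 fell, namely Ahr, the aryl hydrocarbon receptor gene and a partner of ARNT, by 0.23 (edgeR adjusted p = 2.0e-04). Arnt2 had 2.03 and 1.36 CPM (edgeR adjusted p = 0.0553), Arntl 33.9 and 35.2 CPM and Arntl2 1.05 and 0.910 CPM in sgControl and sgCdk10, without a call, and Hif3a was at 0 in every library.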

How the data were processed

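Counts of reads per gene for all 6 libraries were deposited by the authors as 1 table with Ensembl identifiers and no normalization, per the file headers and values. Per the submitters' processing notes, the tools were HISAT2 2.2.1, DESeq2 1.40.2 and featureCounts 2.0.3, on mm10; settings, annotation release and strand mode were not given in the sources used here. Symbols, exons and coordinates were taken from GENCODE M21 (GRCm38), which matched 52081 of 57010 identifiers. The other rows held at most 0.236% of a library's counts.

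Groups and replicate numbers came from the library titles. Genes were kept by edgeR's filterByExpr (minimum count 10, minimum total 15), libraries were scaled by TMM, and the groups were compared by the robust quasi-likelihood test of edgeR 4.0.16, with no other term. Benjamini-Hochberg adjustment ran over all 13442 tested genes, with a threshold of 0.05. The SE of an edgeR log2 fold change was its absolute value divided by the square root of the F statistic of that test. CPM were computed from TMM-scaled totals and, between genes, divided by merged exon length. Shares and ratios were tested by exact two-sided permutation over libraries.

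The members, lists and alternatives were chosen with earlier results of these data known. Named genes were the 10 members, Cdk10, genes that overlap members, the 4 smallest p of each list (5 in each direction for HIF targets) and the 3 nearest genes to Ankrd37 and Car9. Some genes that this rule names are not reported here. Cell type markers, Hif3a and genes at 0 counts are named besides. Alternatives were RLE size factors, DESeq2 1.42.0, limma-voom (limma 3.58.1), no filter, a filter of 1 CPM, non-robust dispersions, a replicate block, a loess correction for GC content and length (span 0.5), leaving out each library and, for shares and levels per length, the longest transcript in place of merged exons. Scripts were tested on simulated counts.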

Additional observations from a re-analysis of the deposited data

How the results depend on the processing

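All alternatives were run on the whole table. Ankrd37, Car9, Egln1 and Vhl stayed higher and Hif1a and Egln2 stayed lower, each past the threshold, in all 15 alternatives, with log2 fold changes of 2.54 to 2.83, 1.05 to 1.12, 0.64 to 0.71, 0.46 to 0.55, -0.23 to -0.18 and -0.42 to -0.27. Hif1an stayed lower in all 15 but was called in 9. Arnt, never called, changed sign with the GC and length correction (-0.0068), with the replicate block and that correction together (-0.0065) and without sgControl replicate 3 (-0.0072, against up to 0.0673 without sgControl replicate 2); the cause was not tested. The count of genes called was 5717 and ran from 4179 with DESeq2 to 6056 without sgControl replicate 3. The share of calls that were higher was 52.0%, and 45.5% with the GC and length correction. Leaving out 1 library gave a difference in the share of Egln1 of 15.9 to 18.3 percentage points.

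The replicate block gave 5481 calls, 6 of the members called and an adjusted p of 0.051 for Hif1an. As a check of pairing, deviations from the mean of each group had correlations of 0.03, -0.06 and -0.10 between libraries of the same number. Some libraries had their highest correlation with another number, so the numbers were not taken to pair them. Depth limits what can be said of Epas1 and Egln3, which had at most 4 counts in a library.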
